A study of Mus musculus with 12 samples.

Results

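The genes examined were 9 members of the CREB and ATF family and their coactivators in Min6 cells: Crem, Creb1, Atf1, Atf2, Atf3, Atf7, Crtc1, Crtc2 and Crtc3, of 21755 protein-coding genes annotated on chromosomes 1 to 19 and X. They were taken by name as a gene family, and every cJun and H3K4me3 peak within 50 kb of their gene bodies was collected (GENCODE vM21, mouse build GRCm38). Min6 is a mouse insulinoma line used as a β-cell model. It was studied by CUT&RUN, in which an antibody directs a nuclease to cut and release the DNA around its target. Cells had received the JNK inhibitor SP600125 (JNKi) at 20 µM for 48 h, or DMSO as the control, and were probed with an antibody against cJun, against the promoter mark H3K4me3 as positive control, or with IgG as negative control. These 6 groups had 2 replicates each, 12 samples in all. The files analysed here were 4 peak lists, DMSO cJun, JNKi cJun, DMSO H3K4me3 and JNKi H3K4me3, each of which joins the peaks found in both replicates of its group. The cells are a single transformed line, and no gene was deleted or overexpressed. A gain or loss of a peak could not be set against replicate spread because each treatment gave 1 list per antibody, so no test was made and all comparisons below are descriptions.

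CREB, ATF and CREM proteins carry a basic leucine zipper (bZIP) with which they pair and grip DNA. CREB1, ATF1 and CREM bind the cyclic AMP response element (CRE) and activate genes when cyclic AMP rises, as it does in β cells after incretin hormones, and the CRTC proteins are coactivators that move to the nucleus and join them. ATF2 and ATF7 are kinase-activated members that pair with cJun, which otherwise prefers the shorter AP-1 site as a dimer with FOS proteins, and ATF3 is a stress-induced member that also pairs with cJun. Crem has an internal promoter that gives the short repressor ICER, a cyclic AMP-induced brake on the same elements.

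The sequences that carry the DNA letters searched are shown first for Atf3, the member with the most such letters outside Crem. Both strands of the reference were searched for 4 words: the CRE (TGACGTCA), a short CRE that is 1 arm of its palindrome (TGACG or CGTCA, contained in every CRE), the AP-1 site (TGACTCA or TGAGTCA) and a CRE variant with 1 changed base (TTACGTCA or TGACGTAA, also containing a short CRE). The variant was added after the Atf3 promoter had been seen. The sequences below are printed 5′ to 3′ on the minus strand, the strand of the gene, and capitals mark the CRE variant or AP-1 site. The first is the RefSeq promoter of Atf3 (GRCm38.p6), from 250 bases before to 50 after its start, chr1:191183284-191183583, and the variant in it overlaps the annotated GENCODE start.
Atf3 promoter: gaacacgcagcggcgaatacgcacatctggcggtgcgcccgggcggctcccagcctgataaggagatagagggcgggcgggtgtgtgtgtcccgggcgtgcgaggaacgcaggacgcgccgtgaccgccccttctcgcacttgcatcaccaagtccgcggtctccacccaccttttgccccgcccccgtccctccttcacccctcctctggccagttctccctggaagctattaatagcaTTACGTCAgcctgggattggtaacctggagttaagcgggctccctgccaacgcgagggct
The second, chr1:191224386-191224469 (GRCm38), lies in the cJun peak upstream of Atf3, where an AP-1 site and a CRE variant stand 29 bases apart.
Atf3 upstream: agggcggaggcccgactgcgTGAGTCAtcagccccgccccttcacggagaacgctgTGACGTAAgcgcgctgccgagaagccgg
The next 3, chr1:191216285-191216331, chr1:191215948-191215994 and chr1:191222168-191222214, hold the AP-1 sites of the intronic cJun peak of Atf3 and of the peak between it and the upstream one.
Atf3 intron, first site: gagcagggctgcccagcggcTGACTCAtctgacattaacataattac
Atf3 intron, second site: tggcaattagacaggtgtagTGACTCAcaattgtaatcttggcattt
Atf3 near upstream: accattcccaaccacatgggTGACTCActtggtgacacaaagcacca
The last 2 are the AP-1 sites of the cJun peaks in Atf7 (minus strand, chr15:102572249-102572295) and near Crtc2 (plus strand, chr3:90248792-90248838).
Atf7 intron: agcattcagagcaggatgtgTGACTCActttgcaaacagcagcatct
Crtc2 neighbour: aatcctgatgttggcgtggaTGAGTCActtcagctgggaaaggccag

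Of the 9 members, 7 had a promoter in the RefSeq table of 32851 promoters of this length, all except Crem and Crtc2. The CRE was found in 1.79% of all promoters and in none of the 7, and the AP-1 site in 5.2% and in none. The short CRE was found in 20.8% of all promoters and in those of Atf1 and Atf3. The CRE variant was found in 0.499% of all promoters, and Atf3 was the member that held it. Since it was added after the Atf3 promoter had been seen, this share is no measure of how unusual that promoter is. A match of letters is a description of the sequence and not a measured binding site.

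cJun peaks lay near 5 of the 9 members in DMSO (Crem, Atf3, Atf7, Crtc2 and Crtc3) and near 2 in JNKi (Crem and Atf3). The same window held a DMSO cJun peak at 28.4% of all protein-coding genes and a JNKi one at 12.2%. Of the 5 members with a DMSO peak, Atf7, Crtc2 and Crtc3 had none in JNKi. The same was true of 3955 of the 6172 genes with a DMSO peak (18.2% of all genes). Crem and Atf3 each had 4 DMSO cJun peaks within 50 kb, and 1.81% of genes had that many or more, a limit set at their own count and not planned. Creb1, Atf1, Atf2 and Crtc1 had no cJun peak in either list. The windows differ in length with the gene, from 109963 bp for Crtc2 to 202251 bp for Crtc3, and neither the shares of all genes nor the counts were adjusted for it.

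At a start site the count was smaller. A peak within 1 kb of any annotated start of the gene was listed for 2 members in DMSO cJun (Crem and Atf3, 7.53% of all genes) and for 1 in JNKi cJun (Atf3, 2.76% of all genes). H3K4me3, which marks the starts of active genes, was listed at a start of all 9 members in DMSO (60.3% of all genes) and of all 9 in JNKi (59.7%), and within 50 kb of all 9 in both (78.3% and 77.9% of all genes).

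In all, 12 of the 4960 DMSO cJun peaks, 3 of the 1632 JNKi cJun peaks, 37 of the 19372 DMSO H3K4me3 peaks and 35 of the 19032 JNKi H3K4me3 peaks lay in the windows. The lists give each peak a −log10 p for each replicate, which rises with the strength of the call, and the value of a merged peak is the lower of them. Ranks below are places in a list by that value, with 1 the strongest. The replicate columns carry no numbers and are called first and second. The irreproducible discovery rate (IDR) estimates the share of irreproducible calls among peaks at least as consistent between replicates, and it was at most 0.05 for 8.97% of DMSO cJun peaks and 15.6% of JNKi cJun peaks. Near the members it was at most 0.05 for 1 of the 12 DMSO cJun peaks, a Crem peak, and for none of the 3 JNKi cJun peaks. The other 11 DMSO peaks had higher IDRs, and 5 of them (1 each at Crem, Atf3, Atf7, Crtc2 and Crtc3) had 0.729, the largest value of the list, which 1935 of its peaks share. The study's methods state a sequencing depth per sample, but the depth reached in each library is unknown here. Because −log10 p moves with depth, ranks and percentiles were taken within a list. Where raw values of DMSO and JNKi stand side by side, they are not scaled to each other.

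The 12 DMSO cJun peaks were 401 to 1651 bp wide, with a median of 720.5 bp against 643 bp in the whole list, and ranked from 348 to 4138. The replicates differed most, on the −log10 p scale, at the Crem peak of rank 348 (13.3 and 25.7) and the Atf3 peak of rank 841 (9.68 and 20.1), as the plot of replicate values shows. The farthest of them from a gene body was 28559 bp away, near Crtc3, and the next beyond the 50 kb limit was 51583 bp from Crtc3 (rank 2216).

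**Figure D1:**
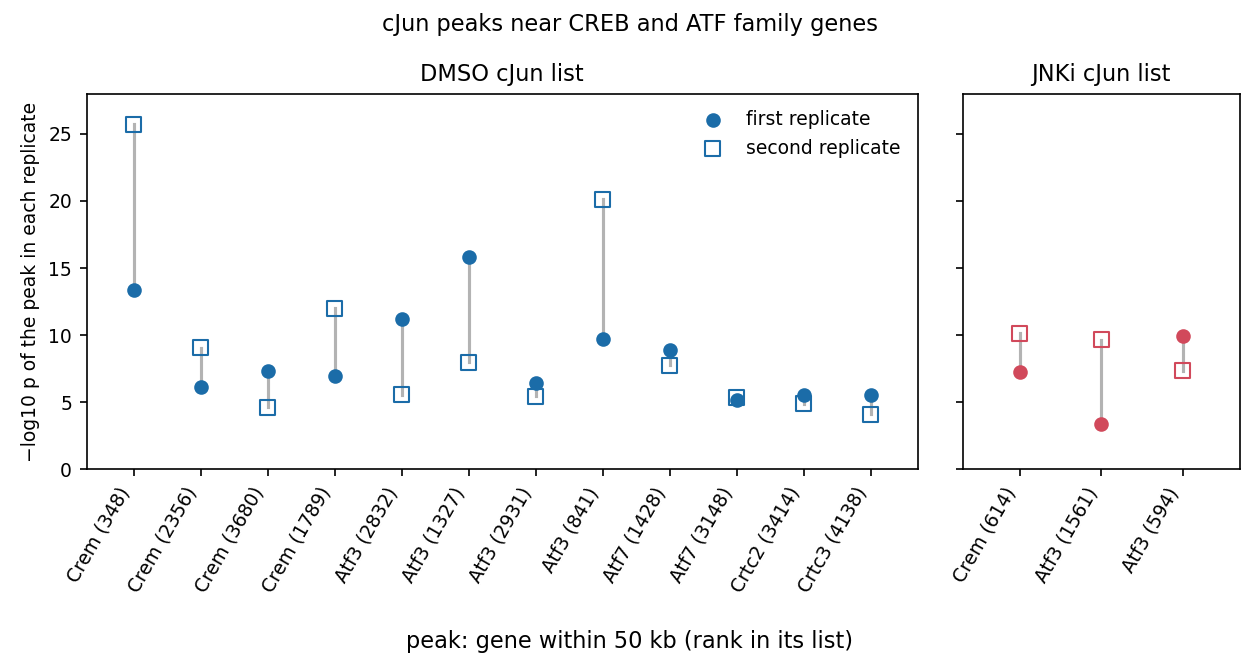
Each point is the −log10 p of 1 cJun peak in the first (filled circle) or second (open square) replicate, with the gene and the rank in the list on the horizontal axis, for the 12 DMSO peaks (left) and the 3 JNKi peaks (right). The strongest peak is the Crem peak of rank 348, with 13.3 and 25.7, and the panels are separate lists whose values are not scaled to each other.

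Crem encodes activators and repressors of cyclic AMP responses from several promoters. The gene (ENSMUSG00000063889.16) lies on chromosome 18, minus strand, between 3266048 and 3337748, and its 32 protein-coding transcripts begin at 7 clusters of starts, joined where they lay within 500 bp. DMSO cJun peaks covered 3 of the 7 clusters, the upstream promoter and both clusters of the internal promoter near the 3′ end, and JNKi cJun peaks covered none. Crem was also the member with the most clusters under H3K4me3, the same 3 in each treatment, and the 4 clusters between them had neither mark. Over all members there were 21 clusters, of which cJun peaks covered 4 in DMSO and 1 in JNKi, against 2.59% and 0.963% of the 34077 clusters of all protein-coding genes. H3K4me3 peaks covered 11 in each treatment, against 43.2% of all clusters in DMSO and 43% in JNKi. Of 2550 genes with 3 or more clusters, 2 had 3 or more under DMSO cJun peaks (0.0784%), of which Crem was one, a count made after the Crem values were seen. The internal promoter counts as separate clusters because the starts up to 3281132 and those from 3281738 lie just beyond the 500 bp limit. A wider limit was not run, and under one that joined them Crem would not have 3. The DMSO cJun list is the longer one, and when it was limited to its strongest 1632 peaks, the length of the JNKi list, the clusters covered fell from 4 to 1, the Crem cluster under the peak of rank 348, so that Crem no longer had 3.

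The strongest cJun peak near any member lay on the internal promoter of Crem, from 3280557 to 3281380 (824 bp). Its −log10 p was 13.3 in the first and 25.7 in the second replicate, its rank was 348 of 4960 (the highest 7.02%) and its IDR was 0.0269. It covered the starts from 3281078 to 3281132, and its summit lay in an exon. A second peak stood just upstream, from 3281595 to 3282348 (754 bp), over the starts from 3281738 to 3281769. It was weaker, with 6.12 and 9.06, rank 2356 and IDR 0.459. The JNKi list held no cJun peak at either place.

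CREs clustered under these peaks. The stronger peak held 2, of which one, from 3281101 to 3281108, overlapped an annotated start and the other, from 3281168 to 3281175, began 36 bp upstream of the next. They lay 98 and 165 bp from the summit. The weaker peak held 1, from 3281821 to 3281828, which began 52 bp upstream of its start and lay 8 bp from the summit. Words were counted near a summit when they lay whole within 100 bp of it, and the CRE at 98 bp runs past that limit. Counted so, a CRE lay near the summit in 1 of the 12 peaks near members, the weaker Crem peak, and in 0.806% of all DMSO cJun peaks, and anywhere in the peak in 2 of the 12 and in 3.1% of all. Peaks with 2 or more CREs made up 0.222% of the DMSO list, and the stronger Crem peak was one of those 11. This limit was not planned and equals the count in that Crem peak. The other 2 Crem peaks held no CRE and none of the 4 held an AP-1 site.

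**Figure D2:**
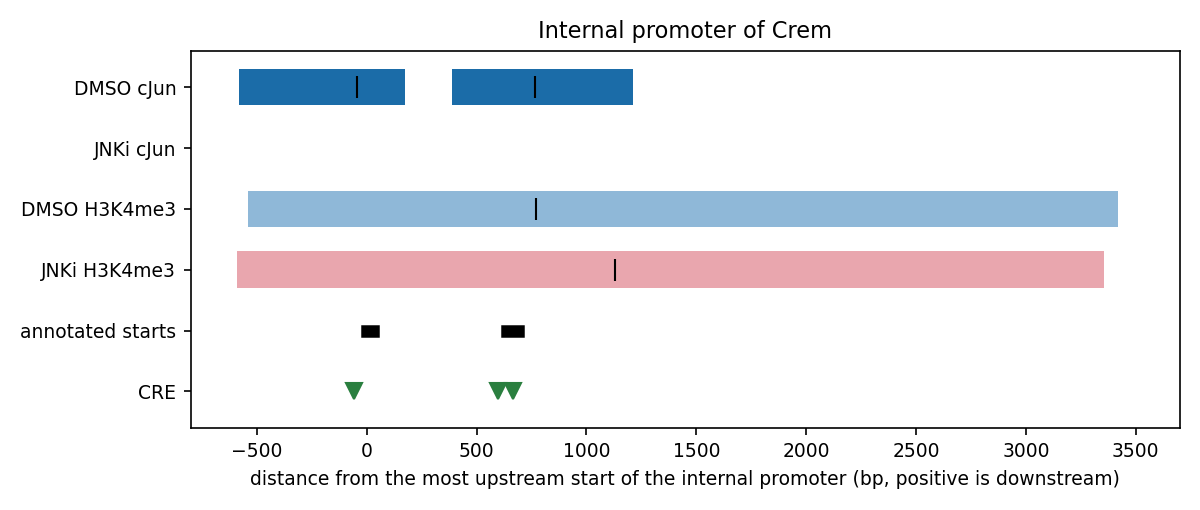
The map places the listed peaks (bars, with the summit as a vertical line), the 2 clusters of annotated starts (black) and the CREs inside the cJun peaks (triangles) of the Crem internal promoter by distance in bp from its most upstream start. Both DMSO cJun peaks lie over start clusters and CREs, the JNKi cJun row is empty, and H3K4me3 spans the promoter in both treatments.

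The remaining Crem peaks lay at the upstream promoter and beyond it. The promoter peak, from 3337429 to 3338023 (595 bp), had a −log10 p of 7.34 and 4.63, rank 3680 and IDR 0.729, and was absent from the JNKi list. The most distant, from 3354835 to 3355556 (722 bp), stood 17087 bp upstream of the nearest Crem start, with 6.99 and 11.99, rank 1789 and IDR 0.410. This was the single Crem site also listed in JNKi, from 3354839 to 3355579 (741 bp), with 7.25 and 10.2, rank 614 of 1632 and IDR 0.220. It was also the single one of the 4 that lay outside H3K4me3, in both treatments.

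H3K4me3 at Crem was listed at both promoters with and without JNKi. Over the internal promoter it spanned 3959 bp in DMSO (−log10 p 104 and 101, rank 9462) and 3945 bp in JNKi (200 and 150, rank 8597), so both JNKi values were above both DMSO values on this unscaled measure. Over the upstream promoter it spanned 4020 bp (300.1 and 227, rank 5429) and 4015 bp (369 and 260, rank 5519), and the replicates of the treatments overlapped. The third H3K4me3 peak in the window lay on the start of the neighbouring gene Cul2.

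Atf3, the stress-induced member, had the other group of 4 DMSO cJun peaks. The gene lies on chromosome 1, minus strand, between 191170296 and 191218039, with 2 clusters of coding starts, a far upstream one at 191218039 and one at 191183340. The peak on the second start, from 191183002 to 191184255 (1254 bp), had a −log10 p of 11.2 and 5.55, rank 2832 and IDR 0.484 in DMSO. In JNKi it spanned 191183035 to 191184114 (1080 bp), with 3.39 and 9.66, rank 1561 of 1632 and IDR 0.672. It is the cJun peak that holds the promoter printed above, and the CRE variant lay 280 bp from the DMSO summit and 276 bp from the JNKi summit.

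The strongest Atf3 peak lay upstream, from 191224173 to 191225823 (1651 bp), 6134 bp from the nearest Atf3 start and over the start of D730003I15Rik, a long noncoding RNA gene. It had 9.68 and 20.1, rank 841 and IDR 0.178 in DMSO. In JNKi it spanned 191224148 to 191225411 (1264 bp), with 9.94 and 7.36, rank 594 and IDR 0.231. The AP-1 site and the CRE variant of the upstream sequence above lay in both. In DMSO they stood 208 and 244 bp from the summit and in JNKi 139 and 102 bp. Whether the peak belongs to Atf3 or to the noncoding gene cannot be told from these lists.

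The other 2 Atf3 peaks were in the DMSO list alone. The intronic one, from 191215895 to 191216713 (819 bp), 1326 bp from the far upstream start, had 15.8 and 7.97, rank 1327 and IDR 0.229, and its AP-1 sites lay 146 and 185 bp from the summit. The one from 191221864 to 191222582 (719 bp) had 6.46 and 5.47, rank 2931 and IDR 0.729, with its AP-1 site 110 bp away. Neither overlapped H3K4me3, while the promoter and upstream peaks did in both treatments.

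**Figure D3:**
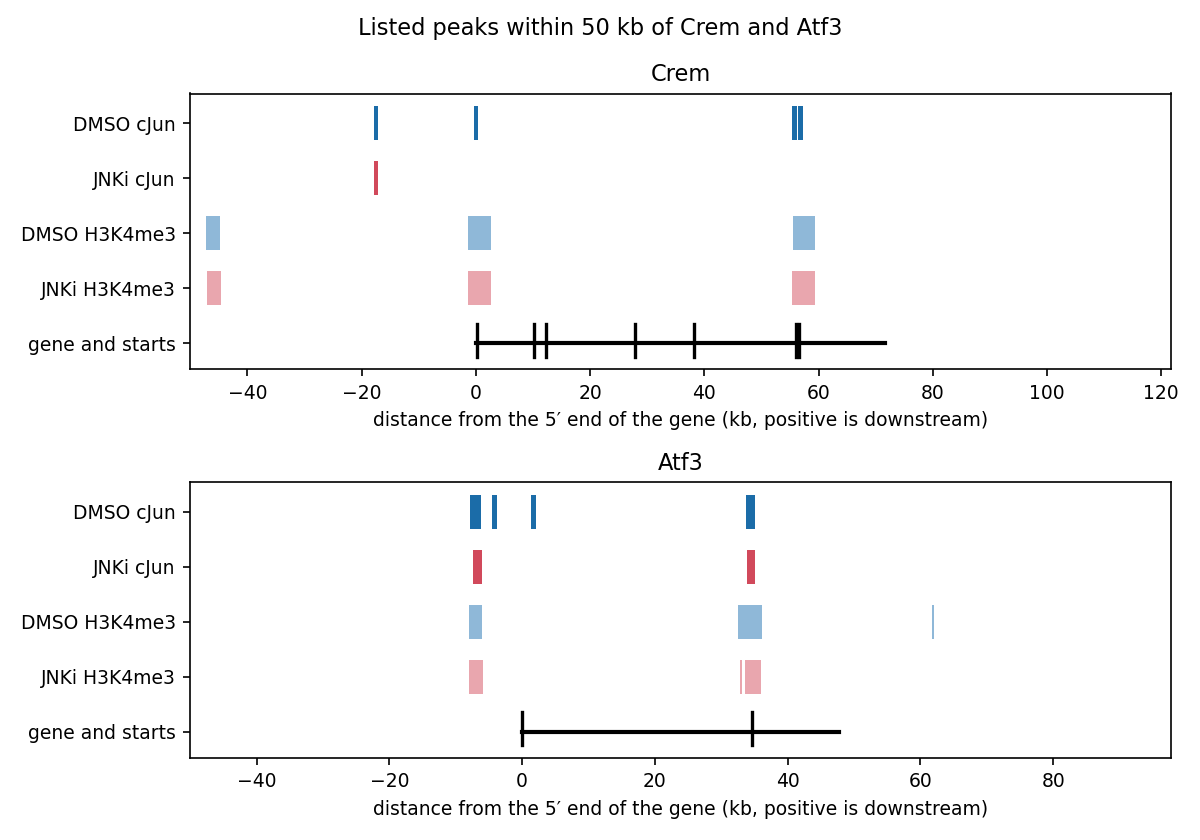
Bars show the listed cJun and H3K4me3 peaks within 50 kb of Crem (top) and Atf3 (bottom) in the 4 lists, by distance in kb from the 5′ end of the gene, with the gene as a black line and its clusters of coding starts as ticks. Of 4 DMSO cJun peaks at each gene, 1 at Crem and 2 at Atf3 have a counterpart in the JNKi cJun row, while the H3K4me3 rows differ at the second start of Atf3, where the JNKi row holds 2 peaks, and downstream of Atf3, where the DMSO row alone holds 1.

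H3K4me3 covered the 191183340 start of Atf3 and was not listed at the far upstream one. The DMSO peak there was 3561 bp wide with uneven replicates (16.2 and 69.1, rank 14353, IDR 0.108). In JNKi the same span held a peak of 2543 bp (86.1 and 70.2, rank 10823, IDR 0.00194) and a separate one of 355 bp. The upstream H3K4me3 peak over the noncoding start ranked 9327 in DMSO and 9343 in JNKi. A narrow peak of 364 bp, downstream of the gene, was listed in DMSO alone.

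Atf7, a kinase-activated relative of Atf2, had 2 DMSO cJun peaks and none in JNKi. The gene lies on chromosome 15 from 102525946 to 102625464 on the minus strand. One peak, from 102518227 to 102518627 (401 bp, −log10 p 8.88 and 7.75, rank 1428, IDR 0.285), was on the start of Tarbp2, a neighbour that encodes an RNA-binding partner of Dicer. The other, from 102572059 to 102572550 (492 bp, 5.19 and 5.37, rank 3148, IDR 0.729), was intronic, 43034 bp from the nearest Atf7 start, with the AP-1 site printed above 186 bp from its summit. It overlapped an H3K4me3 peak of 562 bp that ranked 18972 of 19372 and was likewise absent from the JNKi list.

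The CRTC coactivators had 1 cJun peak each at Crtc2 and Crtc3, in DMSO alone, and neither was at a CRTC start. The peak near Crtc2 (chromosome 3, 90254163 to 90264125, plus strand), from 90248599 to 90249048 (450 bp, 5.54 and 4.89, rank 3414, IDR 0.729), lay 427 bp from the start of Slc39a1, a zinc transporter gene, and on its H3K4me3 peak. The peak near Crtc3 (chromosome 7, 80586627 to 80688877, minus strand), from 80717436 to 80717951 (516 bp, 5.56 and 4.10, rank 4138, IDR 0.729), held none of the words searched and lay nearest to the start of Iqgap1, 12297 bp away. Crtc1 (chromosome 8, 70382355 to 70439579) had none within 50 kb, and the nearest beyond lay 66678 bp away in DMSO (rank 1142) and 66654 bp away in JNKi (rank 1210).

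Set against the whole list, 3 of the 12 DMSO cJun peaks near members shared 1 bp or more with a JNKi cJun peak (23.6% of all DMSO cJun peaks). All 3 JNKi peaks had a DMSO counterpart, a share that was not counted over the whole JNKi list. On H3K4me3 of the same treatment lay 8 of the 12 in DMSO (53.4% of all) and 2 of the 3 in JNKi (55.5%). An AP-1 site lay whole within 100 bp of none of the 12 summits (10% of all) and inside 5 of the 12 peaks (32.6% of all). A short CRE lay whole within 100 bp of the summit in 2 of the 12, both at Crem (13.2% of all). The CRE variant lay in 2 of the 12, both at Atf3, and in 0.806% of all DMSO cJun peaks. It was added after the Atf3 promoter had been seen, and the peak on the second Atf3 start holds that promoter. The count is therefore not independent of the choice of word. With 12 peaks, most of these counts are near the shares of the whole list.

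H3K4me3 was shared between the treatments at nearly all places. Of the 37 DMSO peaks in the windows 33 were overlapped in JNKi (93.4% of all DMSO H3K4me3 peaks). Of the 35 JNKi peaks 33 had a DMSO counterpart, a share that was not counted over the whole JNKi list. The 4 peaks listed in DMSO alone were narrow, 364 to 819 bp: the one beyond Atf3, 2 in introns of Atf7 and 1 near Comp, downstream of Crtc1. The 2 listed in JNKi alone, of 517 and 629 bp, lay in an intron of Crtc3 and beyond its 3′ end. At the starts of other coding genes lay 18 of the DMSO and 18 of the JNKi peaks. These include the peak at the Atf7 start, which also touched a start of Gm28047.

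At the members' own starts, 11 H3K4me3 peaks were paired between the lists. By −log10 p both JNKi replicates were above both DMSO replicates at 5 (the Crem internal promoter, Atf1, Atf2, Atf3 and Atf7), against 27.8% of all 18093 pairs. The reverse was seen at none, and its share of all pairs was not counted. The JNKi list as a whole ran higher, with a median −log10 p of 166 and 119 in its replicates against 125 and 105 in DMSO. Percentiles within each list remove that shift. By percentile both JNKi replicates were above both DMSO replicates at 4 (14.3% of all pairs), below at 2 (22.6%) and overlapping at 5.

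The 4 that stood higher by percentile were small shifts except at Atf2. The Crem internal promoter lay at percentiles 47.0 and 49.4 in DMSO and 54.4 and 54.4 in JNKi. Atf1, a close relative of Creb1, lay at 69.9 and 68.3 and then at 73.7 and 73.2. Atf7 lay at 62.5 and 55.8 and then at 64.0 and 64.9. At Atf2 the DMSO replicates were far apart, at 91.6 and 58.7 (−log10 p 449 and 156, rank 7702), and the JNKi replicates at 94.4 and 98.5 (541 and 582, rank 395). Rank follows the lower replicate, and the higher DMSO value at Atf2 stood near the JNKi values by percentile.

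The 2 that stood lower were Crtc2, from 98.8 and 97.8 to 96.8 and 96.3, and the 5′ start of Crtc3, from 73.6 and 73.8 to 73.0 and 71.9, both by less than 3 points. Crtc2 had the strongest H3K4me3 among the members in DMSO (622 and 487, rank 381) and the second strongest in JNKi (592 and 509, rank 617). Creb1, the founding member, lay at 71.2 and 79.2 in DMSO and 61.9 and 74.5 in JNKi, overlapping. Crtc1 overlapped too, at 70.3 and 71.1 against 71.7 and 60.4. A weak H3K4me3 peak, 704 bp wide in DMSO and 711 bp in JNKi, near an internal noncoding start of Crtc3 lay at 3.53 and 26.3 and then at 19.1 and 27.2.

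**Figure D4:**
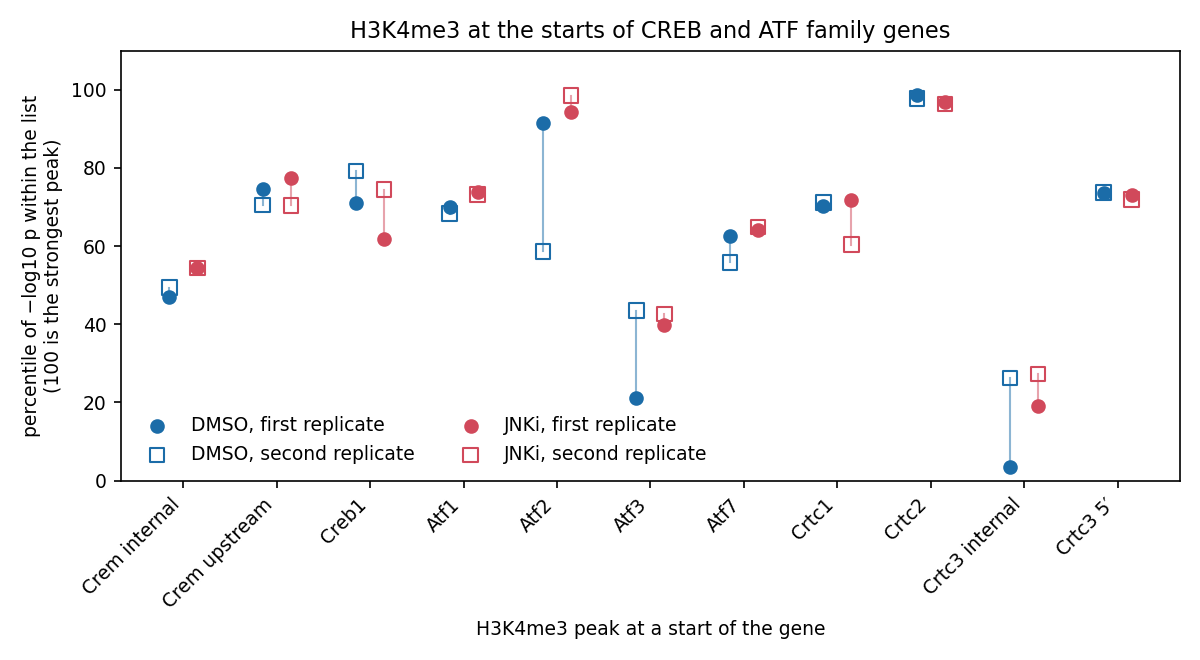
Points give the percentile of −log10 p within the H3K4me3 list (100 is the strongest peak) for the first (filled circles) and second (open squares) replicate of DMSO (blue) and JNKi (red), for the 11 peaks at starts of the members. Replicates of a treatment differ most at Atf2 (91.6 and 58.7), Atf3 (21.2 and 43.5) and the internal start of Crtc3 (3.53 and 26.3) in DMSO, and Crtc2 is high in all 4.

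Other genes of the pathway were examined from lists drawn up by function. Of 16 further CREB and ATF bZIP genes, 10 had a cJun peak within 50 kb in DMSO and 4 in JNKi, and 3 (Atf4, Creb5 and Crebl2) had one within 1 kb of a start in DMSO and 2 (Creb5 and Crebl2) in JNKi. H3K4me3 was listed at a start of 13 of the 16 in each treatment. The shares over all genes were 28.4% and 12.2% within 50 kb and 7.53% and 2.76% at a start for cJun, and 60.3% and 59.7% at a start for H3K4me3. Crebl2, a CREB-like gene, had the strongest of these cJun peaks at a start, with 23.5 and 23.2 in DMSO (rank 79, IDR 0.00271) and 17.5 and 13.3 in JNKi (rank 150, IDR 0.0173). Creb5 had one at its start in both lists (rank 860 in DMSO and 284 in JNKi). Atf4, the regulator of the amino acid and unfolded protein responses, had 2 peaks at its starts in DMSO and none in JNKi. Their −log10 p was 5.99 and 4.72 (rank 3588), and 16.8 and 4.64 (rank 3643). The replicates of the latter were far apart, and its rank follows the lower. Creb3l4, Crebbp, Sik2 and Sik3 are named here after their values were seen. The peak counted for Creb3l4 is the one near Crtc2 described above.

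Of 7 coactivators and kinases (Crebbp, Ep300, Sik1, Sik2, Sik3, Prkaca and Prkacb), 2 had a cJun peak within 50 kb in DMSO (Crebbp, a histone acetyltransferase that binds phosphorylated CREB, and Sik3, a kinase that holds CRTC proteins in the cytoplasm) and 1 in JNKi (Sik2). None had one at a start in either list, and all 7 had H3K4me3 at a start in both. Against the same shares over all genes, the cJun counts of these 7 are near the background. The genes most like Crem in their 4 peak counts within 50 kb (4, 1, 3 and 3 in the order of the lists) were Gucy2g, Pld1 and Rbm20, taken from 5 genes with identical counts. Those most like Atf3 (4, 2, 3 and 3) were Fbxo21, Ptprs and Stx16, taken from 4.

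The labelled cell type was checked with H3K4me3 at starts. The mark was listed at a start of 7 of 8 β-cell genes in both treatments (Ins1 was the exception), 1 of 5 genes of other islet cells (Gcg), 0 of 5 acinar and duct genes and 1 of 3 immune, endothelial and stromal genes (Col1a1), against 60.3% of all genes in DMSO and 59.7% in JNKi. These were the same in DMSO and JNKi.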

How the data were processed

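CUT&RUN libraries from 550000 cells per reaction were sequenced as 150 bp read pairs. According to the labels, the submitters' processing notes and the study's methods, the authors trimmed reads with Trimmomatic, aligned them to GRCm38 with Bowtie2 2.4.2, filtered them with SAMtools 1.16, called narrow peaks per replicate against IgG with MACS2 2.2.7.1 and joined the replicates by IDR. The 4 deposited lists have 20 columns and no header. The −log10 p-values deposited by the authors are not scaled between libraries, and the deposited score is a form of the IDR. Columns for signal and q-value held placeholders. The lowest −log10 p lay just above 3 in every list (a p of 0.001), whereas default calling with a q-value was described, so the cut-off used is unknown. The lists were not limited by IDR. The depth reached in each library and the background at a peak are unknown, because neither reads nor IgG libraries were analysed here.

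All deposited peaks were used. Those within 50 kb of a member (touching by at least 1 bp) were collected, and peaks were placed at a start when within 1 kb of any annotated one. Coding starts within 500 bp were joined into clusters. Shares of whole lists or of all protein-coding genes are given beside most counts, and no test was made, since each treatment gave 1 list per antibody. Named were all members, all their cJun peaks and their H3K4me3 peaks at starts, and, from the lists of related genes, those with a cJun peak at a start. Creb3l4, Crebbp, Sik2 and Sik3 were named outside this rule, after their values were seen. The similar genes were the first 3 in alphabetical order of those with the nearest counts. Members and lists were chosen with earlier results of these data known. Overlap, motif and start-joining steps were tested on simulated data. Python 3.11.15, numpy 2.4.6, pandas 2.3.3 and matplotlib 3.10.9 were used. Alternatives covered the IDR threshold, list length, window, start distance, overlap and motif definitions.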

Additional observations from a re-analysis of the deposited data

How the results depend on the processing

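For 22 counts, 126 alternative values were computed, of which 81 stayed within 1.5 times the count given above and 45 moved. Fewer peaks are counted by construction under a stricter IDR, shorter lists or a narrower window, and the other causes were not tested. H3K4me3 was listed at a start of all 9 members in both treatments under each alternative run except the IDR thresholds, which left 8 in DMSO and 8 in JNKi at 0.05 and 7 and 8 at 0.01.

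At an IDR of at most 0.05, 1 DMSO cJun peak was left near the members (the internal promoter of Crem), so that 1 member had a peak near it, 1 had one at a start, 1 start cluster was covered, 1 peak lay on H3K4me3, 0 overlapped in JNKi and 0 held a CRE or AP-1 site whole within 100 bp of the summit (the CRE that begins 98 bp away runs past it). The JNKi cJun counts were all 0. At 0.01 every cJun count was 0 in both treatments. The IDR is not a plain strength threshold for H3K4me3, since 86 of the 100 strongest DMSO peaks and 95 of the 100 strongest JNKi peaks had an IDR above 0.05.

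With lists of equal length, the DMSO cJun list kept 4 peaks near 3 members, 1 member at a start and 1 start cluster, with 3 peaks on H3K4me3, 1 overlapped in JNKi and 0 with such a whole site near the summit. The stronger peak at the Crem internal promoter was thus still in the DMSO list and not in the JNKi list, while the other 3 Crem peaks dropped out of the DMSO list, including the distal one of rank 1789, which stayed in the JNKi list at rank 614.

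Within 10 kb, 1 member had a JNKi cJun peak, and H3K4me3 peaks numbered 20 in DMSO and 20 in JNKi, with 17 overlapped. Within 100 kb, JNKi cJun peaks numbered 6 near 4 members, with 1 holding a CRE or AP-1 site near the summit, 5 DMSO cJun peaks were overlapped in JNKi and 13 lay on H3K4me3, and H3K4me3 peaks numbered 58 and 56, with 52 overlapped. In whole peaks, 7 DMSO and 1 JNKi cJun peaks held a CRE or AP-1 site in place of 1 and 0. Adding the CRE variant, chosen after seeing the data, changed neither count near summits.

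No paired analysis was possible because an antibody has a single list per treatment, whose replicates are not numbered. Settings that drop a replicate could not be run either, as the lists keep only what both replicates share.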
